A study of Homo sapiens with 6 samples.

Results

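The tripartite motif (TRIM) genes encode a large family of ubiquitin ligases. They were taken here as every protein-coding gene of the deposited count table whose symbol is TRIM followed by a number and at most 1 letter. This rule gave 57 of the 29889 genes in the table. A TRIM protein usually carries a RING domain, which recruits a ubiquitin-loaded E2 enzyme, followed by B-box zinc fingers and a coiled coil, and its C-terminal domain binds the target. In the most common class this domain is the SPRY domain. Many SPRY members are induced by interferon, a cytokine that cells release on infection, and they act in antiviral defence by binding viral proteins or by modifying the sensors of foreign nucleic acid and their adaptors. Other classes work in transcription, on microtubules, in muscle or in neurons.

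The libraries were made from A549, an established cell line from a human lung adenocarcinoma. The cells were transiently transfected with the pIRES-hrGFP-1a plasmid carrying CELF6, an RNA-binding protein that regulates splicing and mRNA level (CELF6-OE), or with the empty plasmid (Control), both with Lipofectamine 2000, and were harvested after 48 h. Polyadenylated RNA was sequenced from 3 libraries per group, 6 in all, which the study describes as biological replicates. The comparison asked which TRIM genes changed when CELF6 was over-expressed. Each group is a bulk culture that may hold transfected and untransfected cells, so fewer cells with a transcript and less of it per cell cannot be told apart.

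The CELF6-OE libraries held 33748328 to 35413404 counts and the Control libraries 36422617 to 37920700. CELF6 had 18646, 20789 and 11571 counts in CELF6-OE replicates 1 to 3 and 0 in each Control library, where a count of 0 allows up to 3 counts. Among the CELF6-OE libraries, replicate 3 had the lowest CELF6 count. The epithelial keratins KRT7, KRT8 and KRT18 had at least 101203 counts in every library. KRT8, KRT18 and KRT19 were nevertheless called lower in CELF6-OE, with log2 fold changes of -0.47, -0.36 and -0.22 (adjusted p = 0.00532, 0.021 and 0.0362), and KRT7 had a value of -0.09 (adjusted p = 0.577). The 6 epithelial markers together had 10273 to 12034 CPM (counts scaled to the library size) in CELF6-OE against 12844 to 15364 in Control. Of the other cell types, the leukocyte markers other than CD14 summed to between 0 and 2 counts. CD14 itself had 310, 230 and 238 counts in CELF6-OE against 235, 271 and 225 in Control (log2 fold change 0.17, adjusted p = 0.443). The epithelial gene CDH1 (E-cadherin) had a log2 fold change of -1.62 (adjusted p = 0.000105). EPCAM, another epithelial marker, was low, with 77, 61 and 85 counts against 135, 106 and 72. It was not called (log2 fold change -0.41, adjusted p = 0.24). The fibroblast markers COL1A1, COL3A1, DCN and PDGFRB together reached 62 to 80 counts in CELF6-OE and 95 to 117 in Control. Most of these were counts of COL1A1, with 65, 56 and 77 against 107, 92 and 87. COL1A1 was not called (log2 fold change -0.45, adjusted p = 0.104). The part of these differences in the TRIM results was not tested.

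Of the 57 members, 46 passed the filter on low counts (edgeR's filterByExpr with a minimum count of 10) and went into the quasi-likelihood test of edgeR, with p-values adjusted by the Benjamini-Hochberg method over all 15847 genes kept. A gene was called at an adjusted p under 0.05. The test called 9 members down-regulated and 0 up-regulated in CELF6-OE, and 37 did not pass. Among all genes tested, 11.5% were called lower and 6.47% higher. Without adjustment, 16 members had a p under 0.05 with a lower level and 3 with a higher level, against 18% and 14.8% of all genes. DESeq2 called 8 members lower and 0 higher, and over all 15847 genes it called 1673 lower and 979 higher. At the threshold of the study's methods, a fold change of at least 1.5 with p under 0.01, the members called were 6 lower and 0 higher, against 5.91% and 1.36% of all genes. Without the filter, over all 29889 genes, 10 members were lower at an adjusted p under 0.05 (7.47% of genes) and 8 at the threshold of the study (4.06%), where TRIM15 and, at the latter, also TRIM67 were added. The median log2 fold change was -0.08 over the members tested and 0.01 over all genes tested.

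The 9 down-regulated members were TRIM22, TRIM31, TRIM38, TRIM29, TRIM5, TRIM21, TRIM69, TRIM26 and TRIM14, in order of their fitted change. A list of 13 TRIM genes known from general knowledge as interferon-induced or antiviral held 8 of them, and TRIM29 was the other. This list was written after the study's table of changed genes had been read, so its count is not independent evidence. Of its 12 measured genes, 8 fell, 0 rose and 4 did not pass, with a median log2 fold change of -0.56. The shares of all genes tested were 11.5% lower and 6.47% higher. TRIM34 was not analysed here. Of the 34 tested members outside the list, 1 fell and 0 rose, and their median was -0.01.

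**Figure D1:**
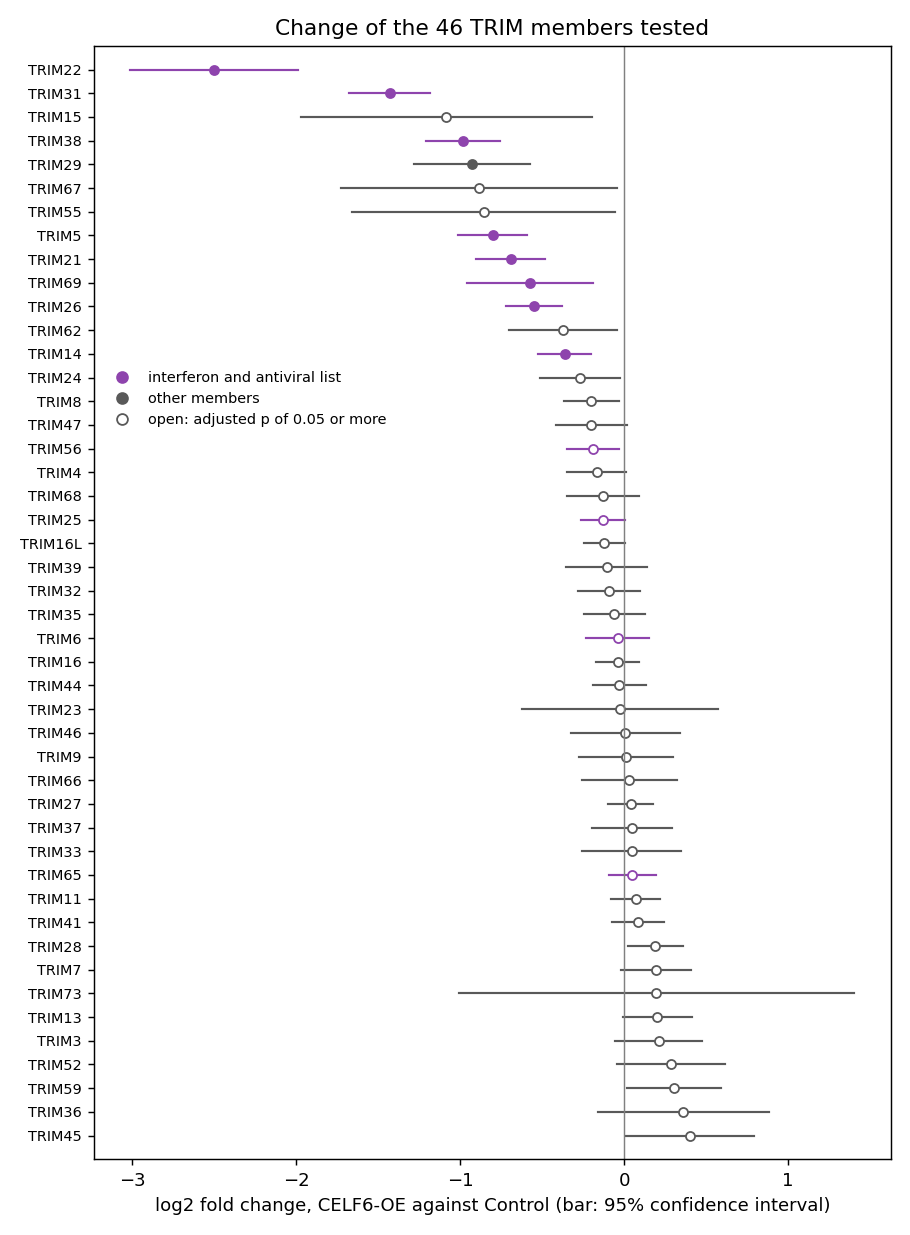
Log2 fold change (horizontal axis, CELF6-OE against Control) of the 46 TRIM members tested, with bars for the 95% confidence interval. Purple points are the interferon and antiviral list, grey points the other members, and filled points have an adjusted p under 0.05. The 9 filled points all lie below 0, from -2.50 for TRIM22 to -0.36 for TRIM14, and 8 of them are purple.

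TRIM22 (ENSG00000132274), an interferon-induced ligase that restricts several viruses, had 334, 346 and 672 counts in CELF6-OE against 3125, 2680 and 2296 in Control. Every CELF6-OE library was far below every Control library, and CELF6-OE replicate 3 stood above the other two. The mean level was 4.19 ± 1.89 FPKM in CELF6-OE and 23.3 ± 4.09 in Control (SD, n = 3 each; FPKM is a level per gene length and library size). The log2 fold change was -2.50 (standard error 0.23, 95% confidence interval -3.01 to -1.99, adjusted p = 4.7e-05), a level 5.66-fold lower and the largest decrease of the family. By FPKM, TRIM22 was the member at place 8 in Control and at place 23 in CELF6-OE.

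TRIM5 (ENSG00000132256) encodes the cytoplasmic factor that binds the capsid of incoming retroviruses. Its counts were 1228, 1133 and 1427 in CELF6-OE and 2386, 2369 and 2214 in Control, and the groups were well apart. The log2 fold change was -0.80 (standard error 0.10, adjusted p = 0.000224), with 8.90 ± 1.27 FPKM against 15.2 ± 0.87. TRIM21 (ENSG00000132109) encodes a cytosolic antibody receptor that directs antibody-coated virus to the proteasome. It had 3014, 2715 and 3473 counts in CELF6-OE against 5058, 5448 and 5163 in Control. No library of a group reached the other group. TRIM21 was the most abundant of the members that fell, with 44.1 ± 6.57 FPKM in CELF6-OE and 69.8 ± 1.92 in Control, and its log2 fold change was -0.69 (standard error 0.10, adjusted p = 0.000627).

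Several members act on the sensing of foreign nucleic acid rather than on the virus. TRIM31 (ENSG00000204616), a ligase of the mitochondrial adaptor MAVS and of the inflammasome sensor NLRP3, had 569, 501 and 663 counts in CELF6-OE against 1741, 1692 and 1496 in Control. Its levels were 7.83 ± 1.29 and 20.7 ± 1.99 FPKM, and its log2 fold change of -1.43 (standard error 0.11, adjusted p = 1.99e-05) was the second largest decrease among the called members. TRIM38 (ENSG00000112343), which regulates signalling through the TAB proteins and the DNA sensing pathway, had 852, 870 and 1085 counts in CELF6-OE against 1971, 2031 and 1844 in Control. The groups were again fully separate, and the log2 fold change was -0.98 (standard error 0.10, adjusted p = 9.56e-05). TRIM31 and TRIM22 were the members that also passed at a fold change of at least 2.

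TRIM26 and TRIM14 fell less. TRIM26 (ENSG00000234127), a ligase linked to turnover of the transcription factor IRF3, had 2010, 2036 and 2290 counts in CELF6-OE against 3131, 3275 and 3363 in Control. The log2 fold change was -0.55 (standard error 0.08, adjusted p = 0.000717), under the fold threshold of the study. TRIM14 (ENSG00000106785), a RING-less adaptor on mitochondria, had 2333, 2287 and 2587 counts in CELF6-OE against 3236, 3258 and 3263 in Control. The groups did not overlap, and its log2 fold change was -0.36 (standard error 0.07, adjusted p = 0.0068).

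TRIM69 and TRIM29 had the lowest levels among the called members. TRIM69 (ENSG00000185880), an interferon-induced factor against vesicular stomatitis virus, had 61, 93 and 81 counts in CELF6-OE against 108, 135 and 125 in Control. The groups did not overlap after scaling, but the call was marginal at a log2 fold change of -0.57 (standard error 0.17, adjusted p = 0.0426), and it was lost in 7 of 16 alternative analyses. TRIM29 (ENSG00000137699), a RING-less epithelial member that restrains innate immune signalling, had 99, 135 and 126 counts in CELF6-OE against 204, 233 and 283 in Control. All CELF6-OE libraries were below all Control libraries, with a log2 fold change of -0.93 (standard error 0.16, adjusted p = 0.00265).

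**Figure D2:**
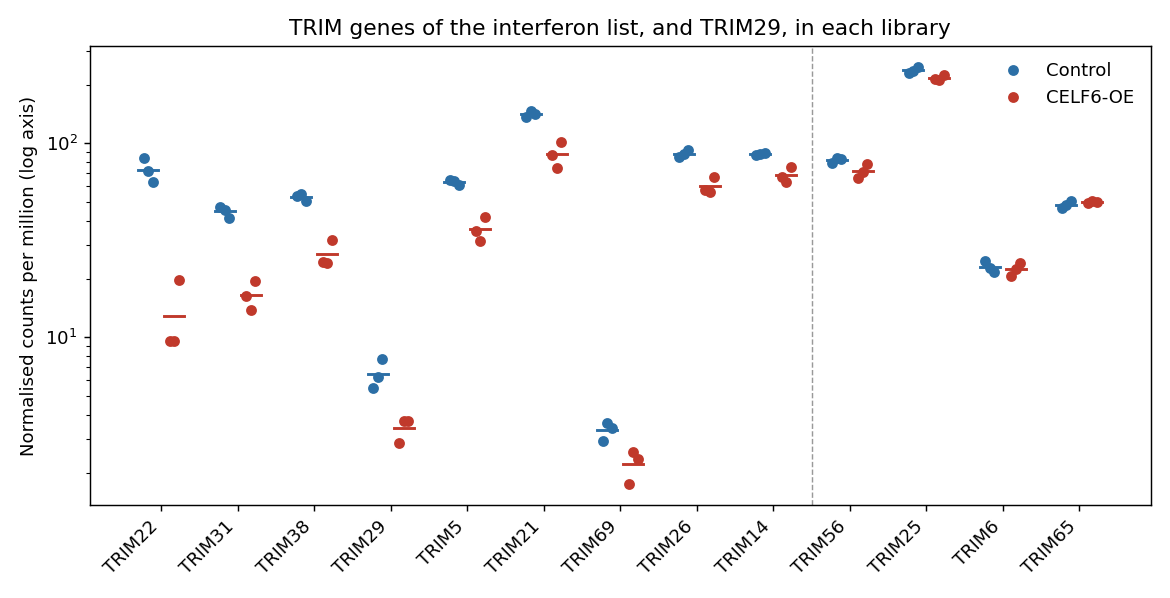
CPM (vertical log axis, counts scaled to the library size) of the 9 down-regulated members and, right of the dashed line, the other 4 measured genes of the interferon list. Points are the 3 libraries of a group from replicate 1 on the left to 3 on the right, and bars are the group means. Blue (Control) and red (CELF6-OE) points are apart for each of the 9, while those of TRIM6 and TRIM65 overlap.

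The other 4 measured genes of the list did not pass. TRIM25 (ENSG00000121060), the ligase that activates the RNA sensor RIG-I, had 7472, 7708 and 7713 counts in CELF6-OE against 8518, 8768 and 9032 in Control. Its groups did not overlap, yet the log2 fold change was -0.13 (95% confidence interval -0.26 to 0.005, adjusted p = 0.168), so a decrease larger than 0.26 lies outside the interval. TRIM56, which modifies the DNA sensing pathway, had 2318, 2573 and 2679 counts against 2927, 3110 and 3039, and its log2 fold change was -0.19 (adjusted p = 0.0955). TRIM6, a ligase that makes free ubiquitin chains for the kinase IKK-epsilon, had 718, 819 and 829 counts against 916, 849 and 794, and its groups overlapped (log2 fold change -0.04, adjusted p = 0.794). TRIM65, a ligase of the RNA sensor MDA5, had 1724, 1831 and 1707 counts against 1712, 1795 and 1834 (log2 fold change 0.05, adjusted p = 0.615).

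Over the 12 measured genes of the list together, the summed level was 673.5 ± 56.3 CPM in CELF6-OE and 946 ± 6.1 in Control (SD, n = 3 each). For 10 of them every CELF6-OE library lay below every Control library, while 20% of all genes tested showed the same. Over the 46 tested members the groups did not overlap for 14 with the lower level and 4 with the higher level in CELF6-OE, against 20% and 17.9% of all genes.

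The residual level differed between the CELF6-OE libraries. As a percentage of the Control mean, TRIM22 kept 13.1%, 13.1% and 26.9% in CELF6-OE replicates 1 to 3. TRIM31 kept 36.7%, 31.1% and 43.6%, and TRIM21 kept 61.2%, 53% and 71.8%. Replicate 3, which had the lowest CELF6 count among them, had the highest level of the CELF6-OE libraries for 7 of the 9 down-regulated members (77.8%), all but TRIM29 and TRIM69. The same held for 1199 of the 1820 down-regulated genes (65.9%), so this order was common in the data, and the part of the CELF6 level in it was not tested.

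**Figure D3:**
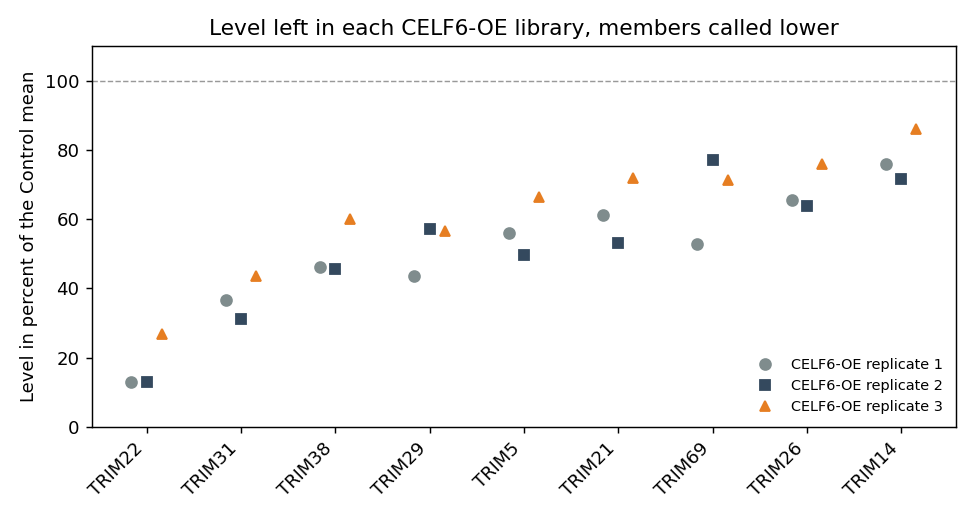
Level of each down-regulated member in each CELF6-OE library, in percent of its Control mean (vertical axis; the dashed line is 100%). Replicate 3 (triangles) is the highest of the CELF6-OE libraries for 7 of the 9 members, from 26.9% for TRIM22 to 85.9% for TRIM14.

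By level, the family was led by TRIM28, the corepressor that KRAB zinc finger proteins recruit to chromatin. TRIM28 had 29878, 31021 and 27867 counts in CELF6-OE against 24886, 27019 and 29802 in Control, or 276 ± 8.33 and 236 ± 17.1 FPKM. Its log2 fold change was 0.19 (95% confidence interval 0.02 to 0.36, adjusted p = 0.107), and Control replicate 3 reached the CELF6-OE range in CPM but not in FPKM. TRIM28 alone gave 32.18% to 34.68% of all TRIM counts in CELF6-OE against 25.74% to 29.18% in Control. The summed level of the family was 2499 ± 32.8 CPM in CELF6-OE and 2708 ± 95.2 in Control, or 1655 ± 56 and 1969 ± 26.7 without TRIM28.

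The next members by mean FPKM over all libraries were TRIM16L, TRIM21, TRIM16 and TRIM47. TRIM16, which takes part in stress responses, and TRIM16L are near-identical over much of their length, so the division of reads between them is uncertain. TRIM16L had 8064, 7922 and 7597 counts in CELF6-OE against 8856, 9118 and 8981 in Control, with a log2 fold change of -0.12 (adjusted p = 0.175). TRIM16 had 7264, 6923 and 6815 counts against 7386, 7712 and 7603, with a log2 fold change of -0.04 (adjusted p = 0.696). TRIM47 had 2902, 3138 and 2837 counts against 2982, 3718 and 4008, so that only Control replicate 1 was near the CELF6-OE libraries (log2 fold change -0.20, adjusted p = 0.183). In the annotation 51.6% of its exon bases lie under genes on the opposite strand.

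**Figure D4:**
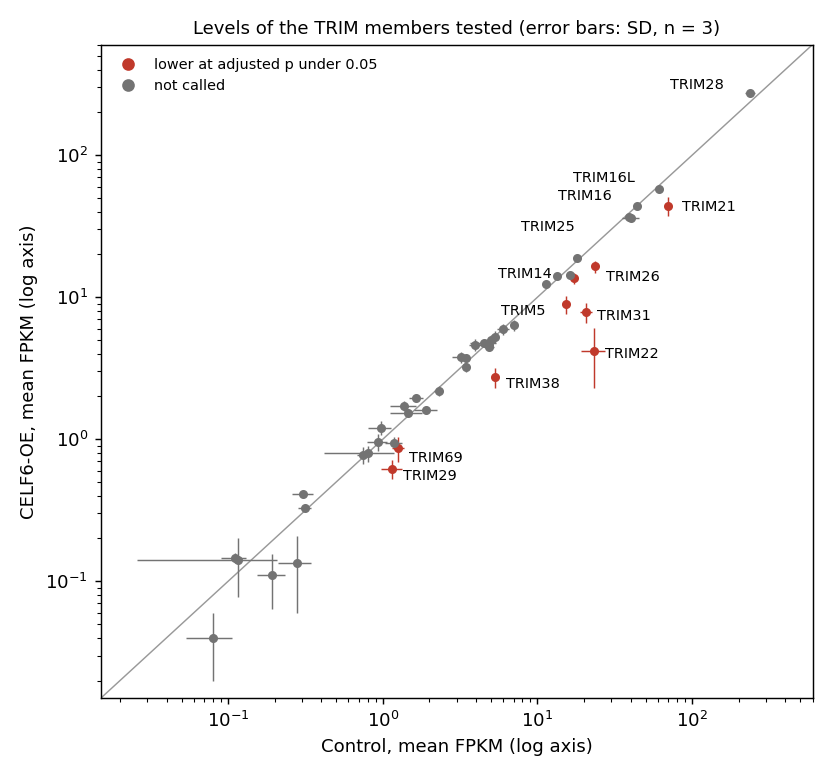
Mean FPKM of the 46 TRIM members tested in Control (horizontal log axis) and CELF6-OE (vertical log axis), with SD bars (n = 3) and a line of equal levels. The 9 members called lower (red) lie below the line at levels from about 1 FPKM, as for TRIM29, to 69.8 FPKM in Control for TRIM21, and TRIM28 is the most abundant member at 236 FPKM.

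By C-terminal domain, of 23 tested SPRY members 7 fell and 0 rose, and all 7 were on the list. Among all genes tested, 11.5% were called lower and 6.47% higher. The 13 tested SPRY members outside the list gave 0 calls at an adjusted p under 0.05 and a median log2 fold change of -0.11. Because the list was written after the study's table of changed genes had been read, this split is not independent evidence. Of these 13, 2 had an unadjusted p under 0.05 with a lower level, against 18% of all genes, so this count sets nothing apart. DESeq2, run on the same counts, also called 0 of these 13. The 4 tested members with a PHD finger and bromodomain, which act in transcription (TRIM24, TRIM28, TRIM33, TRIM66), had log2 fold changes of -0.27 to 0.19 and gave no call. Neither did the 4 tested members with a COS box, fibronectin repeat and SPRY domain, which bind microtubules (-0.88 to 0.36), the 2 tested NHL members TRIM3 and TRIM32 (0.21 and -0.09), or the 2 membrane-anchored members TRIM13 and TRIM59 (0.20 and 0.31). Among the 10 tested members with another or no such domain, TRIM31 and TRIM29 fell. At the share of all genes tested, classes of 2 to 4 genes may hold no call, and the comparison between classes was not tested.

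A few further members were singled out once their values had been seen. TRIM15, TRIM67 and TRIM55 had fitted log2 fold changes of -1.08, -0.88 and -0.86, but their mean counts were 10.7 to 14.3 in CELF6-OE against 22.3 to 28 in Control, and their adjusted p lay between 0.0876 and 0.135. The largest positive value was 0.40 for TRIM45 (63, 67 and 65 counts against 54, 58 and 43, adjusted p = 0.139). TRIM59 had 416, 436 and 471 counts against 418, 412 and 298 (log2 fold change 0.31, adjusted p = 0.127). For TRIM23, the Control libraries were far apart, at 1.2, 0.75 and 0.44 FPKM, and its interval of -0.62 to 0.58 leaves either direction possible.

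The other 11 members did not pass the filter and reached at most 15 counts in any library. These were TRIM54, TRIM63 and TRIM72, which work in striated muscle, TRIM2 and TRIM71 of the NHL class, TRIM58, which acts in red cell precursors, and TRIM10, TRIM17, TRIM40, TRIM61 and TRIM74. TRIM17, TRIM61, TRIM63 and TRIM71 had 3 counts or fewer in every library, and no change could be detected at this depth. TRIM2 had 10, 9 and 4 counts in CELF6-OE against 7, 9 and 8 in Control, and TRIM10 had 4, 2 and 4 against 15, 2 and 3. TRIM73 passed the filter with 14, 6 and 16 counts against 7, 5 and 21, but it and TRIM74 are near-identical copies and their reads are uncertain.

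All 57 gene identifiers were found in GENCODE v44 (GRCh38), and 22 members lie in 6 blocks in which neighbouring members are less than 2 Mb apart. On chromosome 11, TRIM21 (4384897 to 4393702, minus strand), TRIM68, TRIM6, TRIM5 (5663195 to 5938619, minus strand), TRIM22 (5689610 to 5737089, plus strand) and TRIM3 lie between 4384897 and 6474459. Of these 6 members, TRIM21, TRIM5 and TRIM22 fell, and TRIM68, TRIM6 and TRIM3 had log2 fold changes of -0.13, -0.04 and 0.21 and were not called. The share called lower among all genes tested was 11.5%, and whether calls gather in blocks was not tested. On chromosome 6, TRIM31 (30102897 to 30113090, minus strand) and TRIM26 (30184455 to 30213427, minus strand) fell in a block of 7 members from 28903002 to 30343729, while the tested neighbours TRIM27, TRIM15 and TRIM39 did not pass. TRIM38 lies outside this block, at 25962802 to 25991231 on the plus strand. TRIM14 is on chromosome 9 from 98069275 to 98119222 and TRIM69 on chromosome 15 from 44728988 to 44767829. Of their exon bases, TRIM5 shares 7.14% and TRIM22 5.61% with other genes on the same strand, and 7.7% of TRIM14 and 4.94% of TRIM31 lie opposite to other genes.

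Neighbours in 1 block could thus be compared within each library, without any scaling between libraries. The pairs were chosen after the values were seen, so their ratios are a description with no test. The count ratio of TRIM22 to TRIM6 was 0.465, 0.423 and 0.811 in CELF6-OE and 3.41, 3.16 and 2.89 in Control. The ratio of TRIM5 to TRIM6 was 1.71, 1.383 and 1.721 against 2.605, 2.79 and 2.788, and that of TRIM21 to TRIM68 was 7.89 ± 1.34 against 11.6 ± 0.47 (SD, n = 3 each). On chromosome 6, the ratio of TRIM31 to TRIM39 was 1.97 ± 0.49 against 4.91 ± 0.80. In each pair the CELF6-OE libraries were below the Control libraries. TRIM6 shares 29.2% of its exon bases with the read-through gene TRIM6-TRIM34, and TRIM39 shares 29.5% with TRIM39-RPP21, so the counts of both depend on how shared reads were assigned.

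Interferon-induced genes often carry an interferon-stimulated response element (ISRE) near the start site, to which the STAT and IRF factors bind. The ISRE core, GAAA followed by any 2 bases and GAAA again, was searched on both strands, with no mismatch, in the RefSeq promoters of GRCh38.p14, from 250 bases before to 50 bases after each start. A promoter was found for 44 of the 57 members and for 7 of the 9 down-regulated ones, which is under 80%, so a comparison of the whole set is void and the matches are a description. TRIM22 and TRIM29 had no entry. The core was found in 5 of these 7 promoters, in 2 of the 26 of tested members that were not called, and in 4.38% of all 27305 genes with a promoter. Among all tested genes with a promoter it was in 10.3% of the down-regulated and 3.31% of those not called. These 5 windows are shown because they share the element; they are read 5′ to 3′ on the strand of the gene, with the match in capitals, and a pair of TTTC in place of GAAA is the same core on the other strand.
TRIM5, chr11:5685082-5685111, minus strand: atagtttatcTTTCACTTTCctgccctgag
TRIM14, chr9:98119229-98119258, minus strand: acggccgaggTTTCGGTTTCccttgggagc
TRIM69, chr15:44736456-44736485, plus strand: ctaatgagggTTTCTCTTTCtcttaagcaa
TRIM21, chr11:4393663-4393692, minus strand: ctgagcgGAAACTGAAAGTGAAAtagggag
TRIM26, chr6:30213578-30213607, minus strand: cgcctgaTTTCAGTTTCCATTTCgctgccc

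Counted from the start site, the match lay at bases -27 to -18 in TRIM5, -26 to -17 in TRIM14 and -62 to -53 in TRIM69. TRIM21 held overlapping matches at bases 18 to 33 and TRIM26 at bases -194 to -179. TRIM31 and TRIM38 fell by 1.43 and 0.98 on the log2 scale and held no match in this window, which says only that these letters are not in it. The core was also in the promoters of TRIM16 and TRIM44, whose log2 fold changes were -0.04 and -0.03. A match is a sequence feature and not evidence of binding. The core TTCNNNGAA of the gamma-activated site, which STAT dimers bind, was in 0 of the 7 promoters of down-regulated members, 5 of the 26 not called and 9.38% of all genes.

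Ubiquitin conjugation needs an E1 and an E2 enzyme before a TRIM ligase can act. A list of 21 such partners and ubiquitin genes, all tested, gave 3 lower and 2 higher calls with a median log2 fold change of 0.06. These shares are near those of all genes tested, 11.5% lower and 6.47% higher, so the counts set nothing apart. The 3 that fell belong to conjugation of ISG15, an interferon-induced ubiquitin-like protein. ISG15 had 15745, 15220 and 21738 counts in CELF6-OE against 45033, 50761 and 56906 in Control, UBA7, its E1, had 99, 128 and 274 against 962, 1066 and 1149, and UBE2L6, its E2, had 6841, 6556 and 10353 against 21727, 24458 and 24135. Their log2 fold changes were -1.46, -2.58 and -1.49, with adjusted p of 6.39e-05, 0.000108 and 0.000106. The other 18 genes, which include the ubiquitin genes UBB and RPS27A, the E1 enzymes UBA1 and UBA6 and the UBE2D and UBE2N enzymes used by many RING ligases, ranged from -0.11 to 0.24. Among these, UBE2E3 (0.24, adjusted p = 0.0214) and UBE2J2 (0.22, adjusted p = 0.0387) rose slightly, and both calls were lost in some alternatives.

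**Figure D5:**
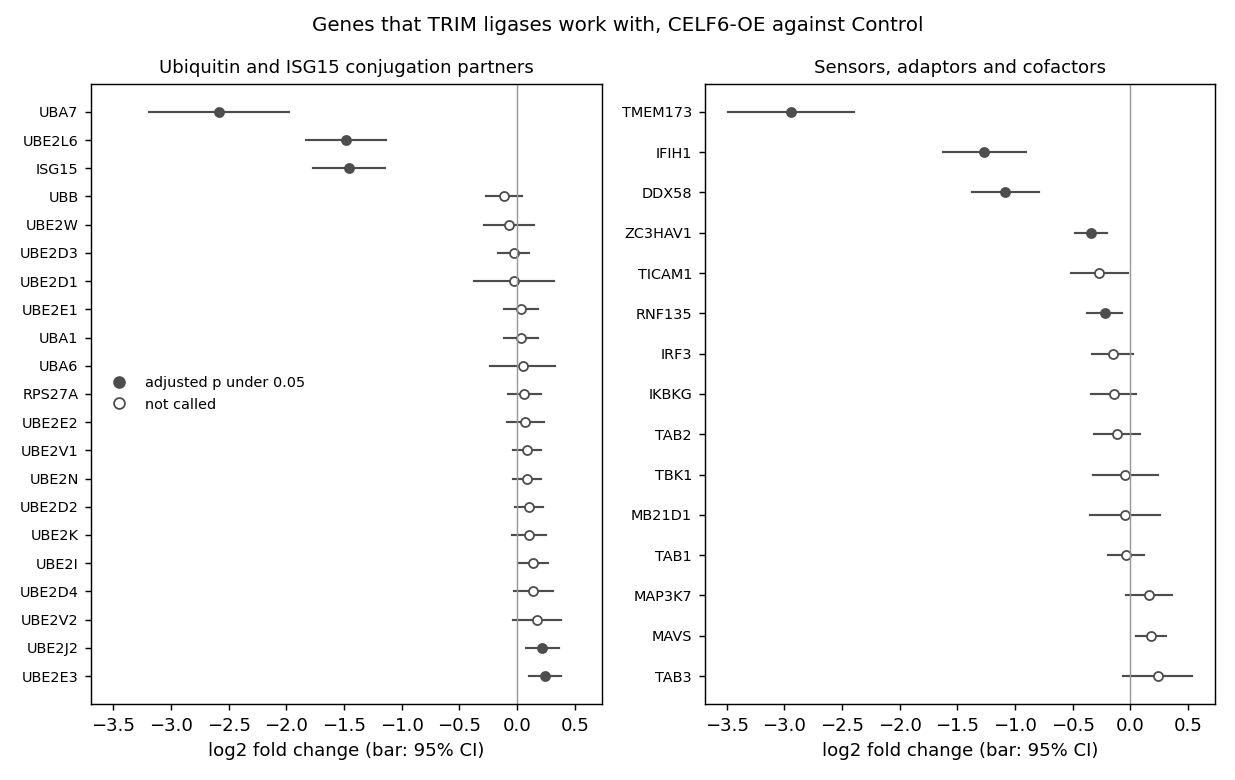
Log2 fold changes (horizontal axes, CELF6-OE against Control, with 95% confidence intervals) of 21 conjugation partners (left) and of 15 tested sensors, adaptors and cofactors (right). Filled points have an adjusted p under 0.05. On the left UBA7, UBE2L6 and ISG15 lie at -1.46 or below and the other 18 between -0.11 and 0.24, and on the right TMEM173, IFIH1 and DDX58 lie below -1.

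A list of 16 sensors, adaptors and cofactors was taken from general knowledge as targets or cofactors of TRIM ligases. Of these, 15 were tested, 5 fell and 0 rose, against 11.5% and 6.47% of all genes tested, with a median log2 fold change of -0.15. TMEM173 (STING), the adaptor of DNA sensing, had 10, 9 and 16 counts in CELF6-OE against 86, 94 and 106 in Control, with a fitted log2 fold change of -2.94 (standard error 0.25, adjusted p = 2.96e-05) at a low level. The RNA sensors IFIH1 (MDA5) and DDX58 (RIG-I) fell by 1.27 and 1.09 on the log2 scale (adjusted p = 0.000382 and 0.000248), with 1050, 1069 and 1565 counts against 3631, 3189 and 2547 for IFIH1 and 2597, 2639 and 3473 against 7354, 6724 and 5445 for DDX58. ZC3HAV1, an antiviral cofactor of TRIM25, fell by 0.34 (adjusted p = 0.00388) and RNF135, another RIG-I ligase, by 0.22 (adjusted p = 0.0466), a call that held in 7 of 16 alternatives. The MAVS adaptor had a value of 0.18 (adjusted p = 0.0559), and TBK1, IRF3 and MB21D1 (cGAS) had values of -0.05, -0.15 and -0.05 and were not called. So for TRIM25 and its sensor RIG-I, the sensor fell by 1.09 and the ligase had a value of -0.13.

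Relatives of the family under other symbols were measured beside the members. PML, the TRIM protein that builds nuclear bodies, had 2118, 2059 and 2514 counts in CELF6-OE against 3922, 4336 and 4686 in Control and fell by 0.88 on the log2 scale (adjusted p = 0.000179). TRIML2, a TRIM-like gene without a RING domain, rose, with 1005, 961 and 817 counts against 630, 681 and 577 (log2 fold change 0.63, adjusted p = 0.000971). The read-through gene TRIM6-TRIM34 had 1097, 1001 and 1293 counts against 1581, 1669 and 1509 and fell by 0.41 (adjusted p = 0.0191), a call that held in 13 of 16 alternatives. It shares exons with TRIM6, and the difference between them was not tested. MID1 and MID2, microtubule-binding ligases, had log2 fold changes of -0.05 and 0.30, and TRIM39-RPP21 had 0.22, with no call for any of them. MEFV and TRIML1 did not pass the filter.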

How the data were processed

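The data are RNA-seq of 6 libraries, 3 of CELF6-OE and 3 of Control, grouped by the labels. Per the study's methods and the submitters' processing notes, reads were trimmed, aligned to GRCh38 with TopHat2, and uniquely mapped reads were counted per gene. The authors deposited raw read counts per gene and FPKM values rounded to 2 decimals. The library kit is stranded, but the counting tool, the annotation release and whether strand was used in counting are not given in the sources used here, so reads of overlapping genes may be divided differently with other settings.

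Counts were scaled with TMM and tested in edgeR 4.0.16 (R 4.3.3) with glmQLFit and glmQLFTest on the 15847 of 29889 genes kept by filterByExpr, with a prior count of 0.125. The study tested all detected genes. The unfiltered fit made here had infinite prior degrees of freedom, against 7.15 in the filtered one, and is given as an alternative. Standard errors are the log2 fold change divided by the square root of the F statistic. P-values rest on the spread between 3 libraries per group, with the variance of each gene drawn towards a trend over all genes kept. FPKM served for levels between genes and CPM, computed here from the counts and TMM factors, for sums, percentages and overlap of groups. Replicates of 1 group differed by 7.67 to 29.3 times the sampling noise (chi-square per degree of freedom), so none was a duplicate.

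The members and lists were chosen with earlier results of these data known, and the lists were written from general knowledge after the study's table of changed genes had been read. Some genes of the partner list are not reported here. Named were the genes of the interferon list, called members, the 5 most abundant members, called partners and sensors, and the relatives. Alternatives were RLE, library size and upper quartile scaling, DESeq2 1.42.0, limma-voom (limma 3.58.1), other filters, removal of CELF6 counts, a prior count of 2, a fold change of 2, the replicate number as a block, and leaving out each library. The test was checked on simulated counts with known changes.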

Additional observations from a re-analysis of the deposited data

How the results depend on the processing

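TRIM22, TRIM31, TRIM38, TRIM29, TRIM5, TRIM21, TRIM26 and TRIM14 were called lower in all 16 alternatives that refitted the counts. The prior count of 2 is 1 of these 16. It changes the fold change but not the p, so its calls at an adjusted p under 0.05 could not differ. TRIM69 was lost in 7 of them, with an adjusted p of up to 0.168. These were DESeq2, scaling by library size only, and the removal of any 1 library except Control replicate 1. The number of members called lower was 8 to 13 when 1 library was left out. The 13, without Control replicate 1, added TRIM47, TRIM56, TRIM62 and TRIM8, and in the same fit the calls over all genes rose to 2370 lower and 1906 higher. Without Control replicate 2 there were 1032 lower and 287 higher genes. The number called higher was 0 to 2 in these fits, with TRIM28 and TRIM3 without Control replicate 3, TRIM59 without Control replicate 1, and 1 (TRIM28) with scaling by library size only. At the study's threshold 2 members passed a fold change of at least 2, and 8 passed without the filter on low counts, where TRIM15 and TRIM67 were added. Leaving out 1 library gave 6 to 8 there. The median log2 fold change of the members was -0.037 with scaling by library size only, where the median of all genes was 0.05. The sign of TRIM6 changed, with log2 fold changes of -0.10 to 0.022 when 1 library was left out, 0.022 without CELF6-OE replicate 1 and 0.004 without Control replicate 1.

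Among the conjugation partners 2 were called higher, 1 without the filter, 0 with the replicate block and 0 to 2 with 1 library left out. UBE2E3 was called in 11 of 16 alternatives and UBE2J2 in 9. Among the sensors, 4 to 8 were lower with 1 library left out, 8 without Control replicate 1, and 0 to 1 higher. With scaling by library size only or by the upper quartile 1 sensor gene was higher. Of the values for single genes, 505 kept their direction and side of the threshold, 31 lost the call, 5 gained it and 2 changed sign. The correlations of the deviations of same-numbered libraries were -0.0555, -0.0461 and -0.099. Those of differently numbered libraries were -0.0158 to 0.0695. The replicate numbers thus showed no shared deviation, but whether same-numbered cultures were handled together cannot be told from these values. With the number as a block, 1570 genes were lower and 720 higher, against 1820 and 1025, and the same 9 members were called. The causes of these changes were not tested. Members with under about 15 counts in each library are limited by depth.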

Other observations

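The non-coding gene TRIM52-AS1, by its name antisense to TRIM52, had 256, 254 and 239 counts in CELF6-OE against 171, 195 and 254 in Control. It was not called (log2 fold change 0.34, adjusted p = 0.129). Relative to library size the CELF6-OE libraries were all above the Control libraries, as were 17.9% of all genes tested. In the annotation, 27.6% of the exon bases of TRIM52 lie opposite to CTC-338M12.4, and no gene named TRIM52-AS1 shares exon bases with it. Whether TRIM52-AS1 lies elsewhere in the annotation was not looked up. The part of either in the counts of TRIM52 was not tested. TRIM31-AS1, which lies opposite to 4.94% of the exon bases of TRIM31, had 1 count in all 6 libraries together.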
